A study of Mus musculus with 9 samples.

Results

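The comparison described here asks what breathing formaldehyde for any length of time does to the microRNAs (miRNAs) of the mouse olfactory bulb. It sets all 6 exposed arrays as 1 group, 3 of mice exposed for 1 day and 3 of mice exposed for 7 days with equal weight for each duration, against 3 control arrays, and so uses 9 of the 9 arrays of the study. The exposed mice breathed formaldehyde (FA), an irritant gas, at 3 ppm for 6 hours per day in a chamber, and the control mice (the normal group of the labels) were kept the same way without it. All were 8-week-old male mice of the outbred ICR strain. The labels give neither the time at which control mice were dissected nor whether each array holds a separate animal, so the p-values measure only the spread between these samples. Of 1027 mouse miRNA probes, 417 were kept: those whose signal, the mean foreground minus background over a probe's spots, was at least 30 on all 3 control arrays or on all 6 exposed arrays. Of the 417, 351 were kept by both groups, 17 by the exposed arrays alone and 49 by the control arrays alone. At the edge of this minimum, miR-381-5p was just inside, with a lowest signal of 2 on the exposed arrays and 30.25 on the control arrays. miR-221-5p was just outside, with 14.75 on the exposed arrays and 29.75 on the control arrays.

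MiRNAs are short RNAs that guide a silencing complex to messenger RNAs. Bases 2 to 8 from the 5′ end of the mature miRNA, the seed, pair with the target, so that miRNAs with 1 seed share many targets. The olfactory bulb is the first relay of smell: the axons of the sensory neurons of the nose end in its glomeruli, and new interneurons reach it throughout adult life. Brain miRNAs such as miR-124 and miR-9 mark neurons and their precursors, and the miR-200 family is known for its part in olfactory neurogenesis. Values below are normalized log2 intensities, and a difference is exposed minus control on that scale with its standard error (SE) from limma. miR-124-3p was detected on all 9 arrays with 15.02 on each, since normalization gives the probe with the highest value on every array 1 common value. miR-200a-3p had 13.24 to 13.55 on the exposed arrays and 13.17 to 13.40 on the control arrays. Both are miRNAs that an olfactory bulb would hold.

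The mature sequences below are those of the miRNAs the results turn on, 5′ to 3′, from RefSeq on the mouse build GRCm38.p6. Capitals mark the seed. Of the 24 probes with the smallest p-values, 12 in each direction, 19 matched a mature sequence by name, and of all 417 probes 313 did. The first 6 lay higher after exposure, and the first 3 of them share a seed.
miR-148a-3p: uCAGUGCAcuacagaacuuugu
miR-148b-3p: uCAGUGCAucacagaacuuugu
miR-152-3p: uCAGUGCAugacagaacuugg
miR-181a-1-3p: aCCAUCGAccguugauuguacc
miR-24-3p: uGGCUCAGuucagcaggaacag
miR-31-5p: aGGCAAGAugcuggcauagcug
The next 5 lay lower after exposure, each with a seed of its own.
miR-204-3p: gCUGGGAAggcaaagggacgu
miR-3104-3p: aCGCUCUGcuuugcucccccaga
miR-1943-3p: cAGGUGCCagcuccucccuuc
miR-296-5p: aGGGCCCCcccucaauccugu
miR-324-3p: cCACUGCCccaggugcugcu

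Median signal ran from 224 to 441 on the exposed arrays, the lowest and the highest both after 7 days, and from 287.5 to 317.25 on the control arrays, and 2 arrays stood apart in pattern. The exposed arrays detected 398 to 505 mouse probes and the control arrays 461 to 520, and the means (467 ± 36.6 exposed, n = 6, and 485 ± 30.8 control, n = 3, SD) gave p = 0.524 in an exact two-sided permutation test over the arrays (adjusted p = 0.762 over 3 such measures). Median background and median signal each had an adjusted p of 0.762 by the same exact test. Over the tested probes, the typical (root mean square) distance of an array from the mean of the 7 that do not stand apart was 0.70 on FA 7 days replicate 3 and 0.94 on control replicate 2, against 0.27 to 0.46 on the other exposed arrays and 0.48 and 0.27 on the other controls. Control replicate 2 was the lowest of the 9 arrays for 102 of the 417 probes and the highest for 90. Values without it are given beside many of the results below.

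No miRNA passed the test. With limma, fitted to all 9 arrays as 3 group means with the average of both durations set against control, 0 of 417 probes (0% called) had a Benjamini-Hochberg adjusted p under 0.05, and the smallest adjusted p was 0.701. At an unadjusted p under 0.05 there were 23 probes (5.52% of the 417), 12 higher (2.88%) and 11 lower (2.64%), where 20.85 would be expected with no difference at all. This split depends on the scaling of the arrays: it was 6 higher and 22 lower with median scaling, and 1 higher and 28 lower without normalization, under which the median over all probes shifted by -0.12. With the deposited ratios it was 5 higher and 13 lower. Exposed and control arrays did not overlap for 8 probes (1.92%), 7 higher (1.68%) and 1 lower (0.24%). An exact permutation test of each probe over the 84 splits of the arrays had 19 probes under 0.05 unadjusted and 0 after adjustment (smallest adjusted p = 0.863). Its smallest possible p is 0.0238, which 8 probes reached, so this test had little room over so many probes.

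The intervals give the precision on this log2 scale, which understates the fold change of dim probes because an offset of 50 is added to every signal. The median standard error was 0.24, and the median 95% interval reached 0.55 to either side of a difference. For 285 of 417 probes (68.3%) the whole interval lay within 1 unit of this scale of no difference, and for 56 within 0.5. For a dim probe such an interval does not bound the fold change of the signal itself. The fold values given below are on this scale too. Across all probes the median difference was 0.05, with 90% of the differences between -0.60 and 0.66. Only 9 probes differed by more than 1 in size. Of these, 6 lay higher, and control replicate 2 was the lowest of all 9 arrays for 6 of those 6.

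Among the probes that lay higher after exposure, miR-148a-3p and miR-152-3p share a seed, and neither passed the test. miR-148a-3p, whose family is known to repress the DNA methyltransferase DNMT1, stood at 7.89, 7.87 and 7.25 after 1 day and 7.67, 7.88 and 7.18 after 7 days, against 7.10, 6.81 and 7.07 in control. All exposed arrays lay above all control arrays, though by little on 2 of the 6. The difference was 0.63 ± 0.22 (1.55-fold, 95% interval 0.13 to 1.13), with an adjusted p of 0.701 from limma. It was 0.42 with median scaling and 0.39 without normalization. miR-152-3p, with the same seed, had 8.20, 8.20 and 7.69 after 1 day and 8.18, 8.23 and 7.92 after 7 days, against 7.49, 6.60 and 7.82 in control. Here control replicate 3 lay above 1 exposed array, and the difference of 0.77 ± 0.27 became 0.42 without control replicate 2. miR-148b-3p, the only other tested probe with the seed CAGUGCA, had 9.69, 10.26 and 9.57 after 1 day and 9.40, 9.38 and 9.46 after 7 days, against 9.10, 8.62 and 9.59 in control. Its groups overlapped through control replicate 3, and its difference was 0.52 ± 0.24 (unadjusted p = 0.0607), or 0.28 without control replicate 2. The 3 genes lie on chromosomes 6, 15 and 11. Mature miR-148a-3p is encoded at chr6:51269829-51269850 on the minus strand, and miR-152-3p at chr11:96850439-96850459 on the plus strand within the span of Copz2.

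miR-3473 had 8.12, 8.57 and 8.60 after 1 day and 7.96, 8.04 and 8.74 after 7 days, against 7.45, 7.78 and 7.81 in control. The arrays of the 2 groups did not overlap, and the difference of 0.66 ± 0.22 (1.58-fold) stayed between 0.46 and 0.89 over 23 alternative settings. miR-31-5p, known from epithelia, had 8.01, 8.05 and 7.45 after 1 day and 7.64, 7.73 and 7.42 after 7 days, against 7.06, 7.39 and 7.32 in control. It too did not overlap, by a narrow margin, at 0.46 ± 0.19. Neither value rested on control replicate 2, without which they were 0.72 and 0.52. The difference of miR-31-5p depended on the scaling, with 0.28 with median scaling and 0.25 without normalization. miR-31-5p is encoded at chr4:88910614-88910635 on the minus strand, in the span of the long non-coding RNA gene Gm49890.

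miR-181a-1-3p, the passenger strand of a miRNA abundant in brain and lymphocytes, had 7.01, 6.86 and 6.90 after 1 day and 7.27, 7.22 and 6.95 after 7 days, against 6.69, 6.18 and 6.73 in control. It was detected on 6 of 6 exposed arrays and on 2 of 3 control arrays, and was kept by its exposed arrays alone. Its difference was 0.50 ± 0.18, and 0.32 without control replicate 2. It also depended on the processing, with 0.20 without normalization, 0.91 with the deposited ratios and 1.72 with the background subtracted and floored at 1. The guide strand from the same hairpin, miR-181a-5p, differed by 1.24 ± 0.87, with 7.38 on control replicate 2 against 11.42 and 11.45 on the other controls and 10.58 to 12.39 on the exposed arrays, and was -0.12 without that control. miR-181c-3p, which shares the seed of miR-181a-1-3p, differed by 0.25 ± 0.16, and by 0.11 without it. Mature miR-181a-1-3p lies at chr1:137966508-137966529 on the plus strand.

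For miR-24-3p most of the difference lay in 1 control array. It had 11.51, 11.29 and 11.29 after 1 day and 11.35, 11.63 and 11.77 after 7 days, against 11.16, 9.59 and 11.16 in control. The groups did not overlap, yet control replicates 1 and 3 lay close under the exposed arrays while replicate 2 lay far below. The difference of 0.84 ± 0.34 (1.79-fold) was 0.32 without control replicate 2. Its partners in the miR-23, miR-27 and miR-24 clusters, known from vessels and lipid metabolism, varied: miR-27b-3p differed by 1.24 ± 0.57, with 6.28 on control replicate 2, and miR-23a-3p by 0.29 ± 0.21. Without that array they had 0.35 and 0.11. miR-23b-3p differed by -0.07 (0.10 with median scaling), miR-24-1-5p by -0.10 ± 0.19 (0.03 without control replicate 2) and miR-24-2-5p by 0.23 ± 0.17. Mature miR-24-3p is encoded at 2 places, chr13:63301251-63301272 in the span of Aopep and at chr8:84208875-84208896, both on the plus strand.

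The other 6 of the 12 higher probes were from varied families. miR-106a-5p, of the miR-17 family that promotes proliferation of progenitors, had 8.58 to 9.25 on the exposed arrays and 7.98 to 8.69 on the control arrays, a difference of 0.51 ± 0.20. Of the 5 tested probes with its seed AAAGUGC, miR-93-5p, miR-20a-5p and miR-17-5p had values of 0.53, 0.50 and 0.30, and miR-106b-5p one of -0.15, which was 0.08 with median scaling. Without control replicate 2, miR-93-5p had 0.05. miR-466b-5p, of the large rodent cluster in Sfmbt2 and on a probe shared with miR-466o-5p, differed by 0.43 ± 0.17 and miR-425-5p by 0.45 ± 0.19. miR-466b-5p was kept by its exposed arrays alone, and had 0.15 with median scaling and 0.12 without normalization. The remaining 3 differed between the durations: miR-291b-3p, of a cluster known from embryonic stem cells, had 0.79 after 1 day and 0.18 after 7 days. Its tested neighbours lay the other way, with pooled values of -0.63 for miR-291b-5p, -0.52 for miR-291a-5p and -0.998 for miR-294-5p. miR-199a-5p, a miRNA of mesenchymal cells, had 1.20 after 1 day (8.88, 9.24 and 7.93 on the arrays) and 0.12 after 7 days. For miR-151-5p these values were 0.68 and 0.09. Their pooled differences of 0.49 ± 0.19, 0.66 ± 0.28 and 0.39 ± 0.17 thus average unequal parts, and the unadjusted p of FA 7 days against FA 1 day was 0.0211, 0.00954 and 0.0136 (limma; smallest adjusted p over all probes 0.437). Without control replicate 2, miR-106a-5p had 0.32 and miR-425-5p 0.30.

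**Figure D1:**
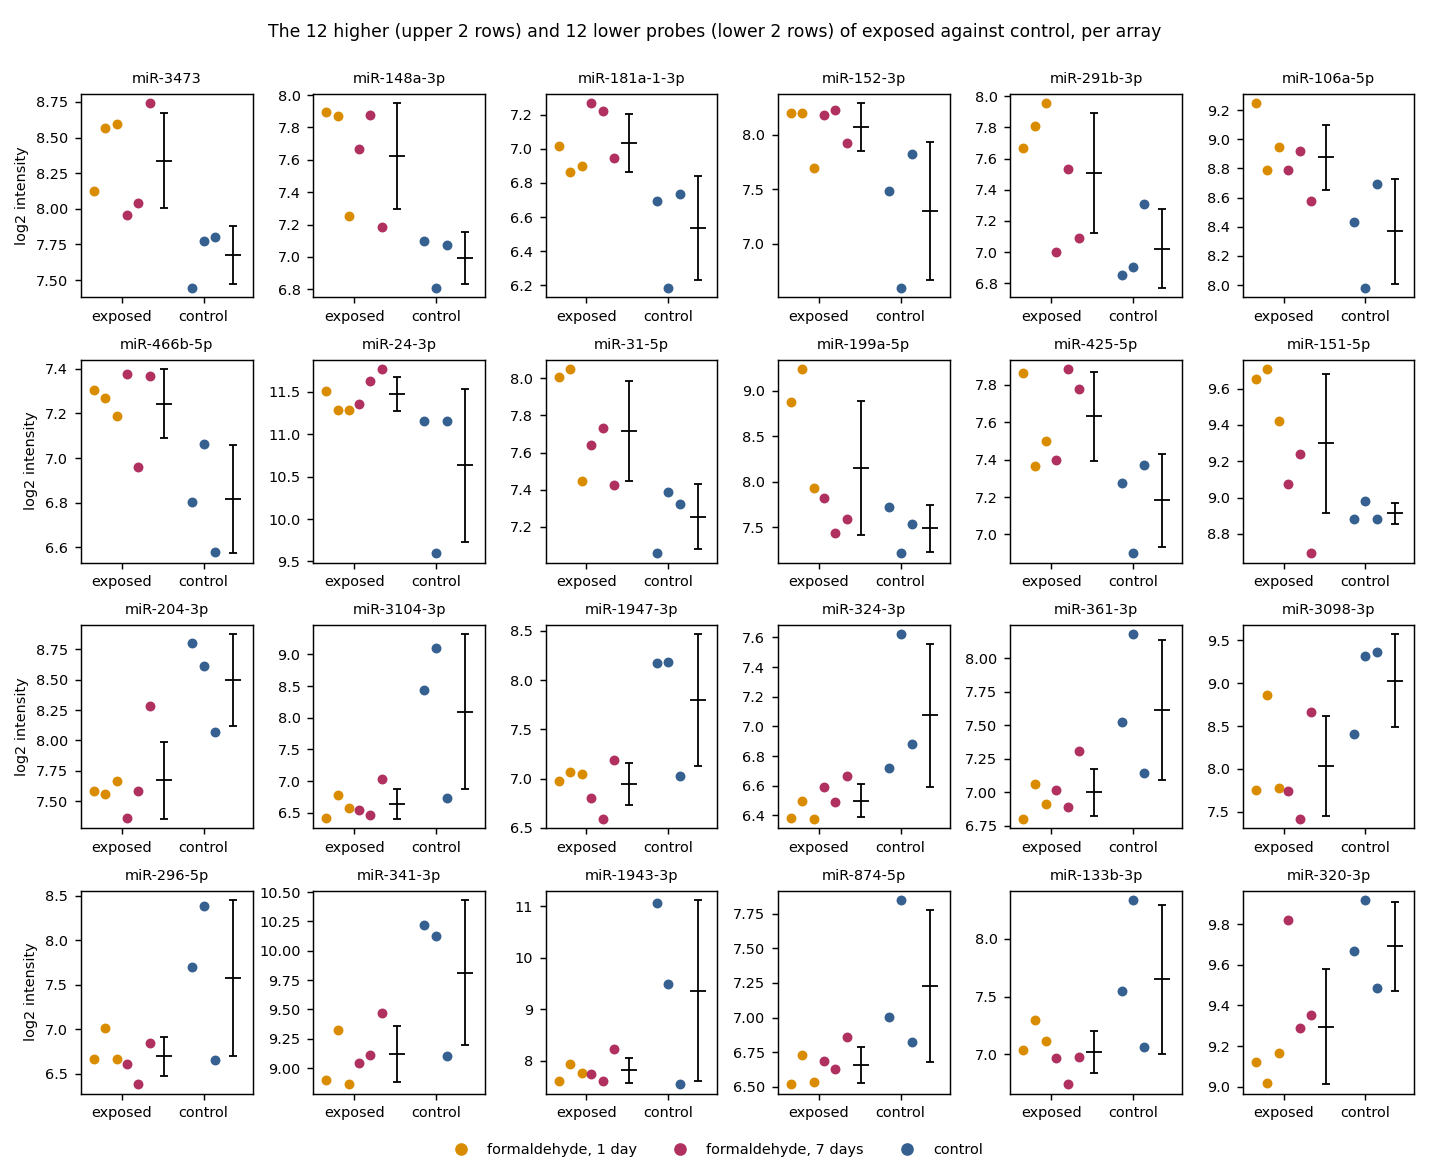
Normalized log2 intensity on each array of the 12 higher and the 12 lower probes with the smallest unadjusted p. Points are arrays, exposed left (orange 1 day, red 7 days) and control right (blue, in order of replicate number), and bars are mean ± SD (n = 6 and n = 3). In 10 of the 12 lower panels the last control point lies at or below the highest exposed point.

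Among the 12 lower probes with the smallest p, the exposed arrays were mostly more tightly grouped than the controls. In 10 of the 12, control replicate 3 lay at or below the highest exposed array. In 10 of the 12 control replicates 1 and 2 both lay above all exposed arrays. Choosing probes by a small p against these controls favours such counts, and their share over all 417 probes was not computed. The SD of the exposed arrays was below that of the controls for 10 of these 12, for 6 of the 12 higher probes and for 228 of 417 (54.7%) over all probes. It was above that of the controls for miR-3098-3p (0.58 against 0.54) and miR-320-3p (0.28 against 0.22). Of the 12 lower probes 5 were kept by their control arrays alone, with at least 1 exposed array under the detection minimum.

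miR-204-3p had the smallest p of all (unadjusted p = 0.00830, adjusted p = 0.701, limma). It is the passenger strand of a miRNA known from choroid plexus and pigment epithelium, and its gene lies within Trpm3. It had 7.58, 7.56 and 7.67 after 1 day and 7.36, 7.58 and 8.28 after 7 days, against 8.80, 8.61 and 8.07 in control. Only FA 7 days replicate 3, which stands apart, reached into the control range. The difference was -0.82 ± 0.24 (0.566-fold, 95% interval -1.37 to -0.27), -0.97 without that array and -0.77 without control replicate 2. The guide strand miR-204-5p differed by 0.51 ± 0.50, and by -0.23 without control replicate 2, so whether the arms of the hairpin had 1 sign depended on that array. The mature sequence lies at chr19:22750649-22750669 on the plus strand.

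miR-3104-3p and miR-1943-3p had the most negative differences, and both depended on which controls were taken. miR-3104-3p had 6.41, 6.78 and 6.58 after 1 day and 6.54, 6.47 and 7.04 after 7 days, against 8.44, 9.10 and 6.73 in control. It was detected on 3 of 6 exposed arrays and was kept by its control arrays alone, and its difference was -1.46 ± 0.45. miR-1943-3p had 7.60, 7.93 and 7.77 after 1 day and 7.74, 7.61 and 8.23 after 7 days, against 11.06, 9.48 and 7.54 in control, a difference of -1.55 ± 0.62. For both, control replicate 3 lay among the exposed arrays. Without that control, the differences were -2.18 (adjusted p = 0.0127) and -2.47 (adjusted p = 0.0356), and both passed the test. The same held for miR-1947-3p (-1.27, adjusted p = 0.0356) and miR-296-5p (-1.39, adjusted p = 0.0453), and miR-711 (-0.95 with all arrays) passed as well. miR-1947-3p and miR-296-5p were likewise kept by the control arrays alone, where they are high. For them and for miR-3104-3p and miR-1943-3p, control replicate 3 was also the lowest control, so leaving it out favours a pass. Passing values reached by leaving out this array, that of miR-711 among them, are no independent support. Without control replicate 2, miR-3104-3p had -0.95, and without control replicate 1, miR-1943-3p had -0.70. The mature sequences lie at chr7:141992218-141992240 on the plus strand in the span of Brsk2, and at chr15:79375236-79375256 on the minus strand in that of Tmem184b.

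miR-1947-3p had 6.59 to 7.19 on the exposed arrays, against 8.18, 8.19 and 7.02 on the control arrays, a difference of -0.85 ± 0.28. miR-296-5p, from the imprinted Gnas region, had 6.38 to 7.02 on the exposed arrays, against 7.70, 8.39 and 6.65 on the control arrays, a difference of -0.88 ± 0.34 that was -0.47 without control replicate 2. Its other arm, miR-296-3p, differed by -0.03 ± 0.15, and its neighbour miR-298-5p by 0.15 ± 0.21 (-0.08 without control replicate 2). miR-341-3p, of the imprinted Dlk1-Dio3 cluster and encoded within Rian, had 8.86 to 9.47 on the exposed arrays, against 10.22, 10.12 and 9.10 on the control arrays. These 3 share the pattern of 2 high controls and 1 that sits with the exposed arrays.

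miR-324-3p was the 1 lower probe whose groups did not overlap. It had 6.38, 6.50 and 6.38 after 1 day and 6.59, 6.49 and 6.66 after 7 days, against 6.72, 7.62 and 6.88 in control. It was detected on 1 of 6 exposed arrays and on 3 of 3 controls, near the detection minimum, and was kept by its control arrays alone. Its difference of -0.57 ± 0.21 was -0.30 without control replicate 2, -1.39 with the deposited ratios and -1.46 with the background subtracted and floored at 1. miR-361-3p (-0.62 ± 0.23), miR-874-5p (-0.57 ± 0.23) and miR-133b-3p (-0.63 ± 0.26) also had their highest value on control replicate 2 and became -0.34, -0.25 and -0.29 without it. miR-133b-3p is best known from muscle. miR-3098-3p (-0.99 ± 0.38) and miR-320-3p (-0.40 ± 0.18, unadjusted p = 0.0535) were the last of the 12. miR-3098-3p had 8.86 and 8.66 on 2 exposed arrays, above the 8.40 of control replicate 1, and its difference was -0.46 with medians over spots and -0.53 with the deposited ratios.

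**Figure D2:**
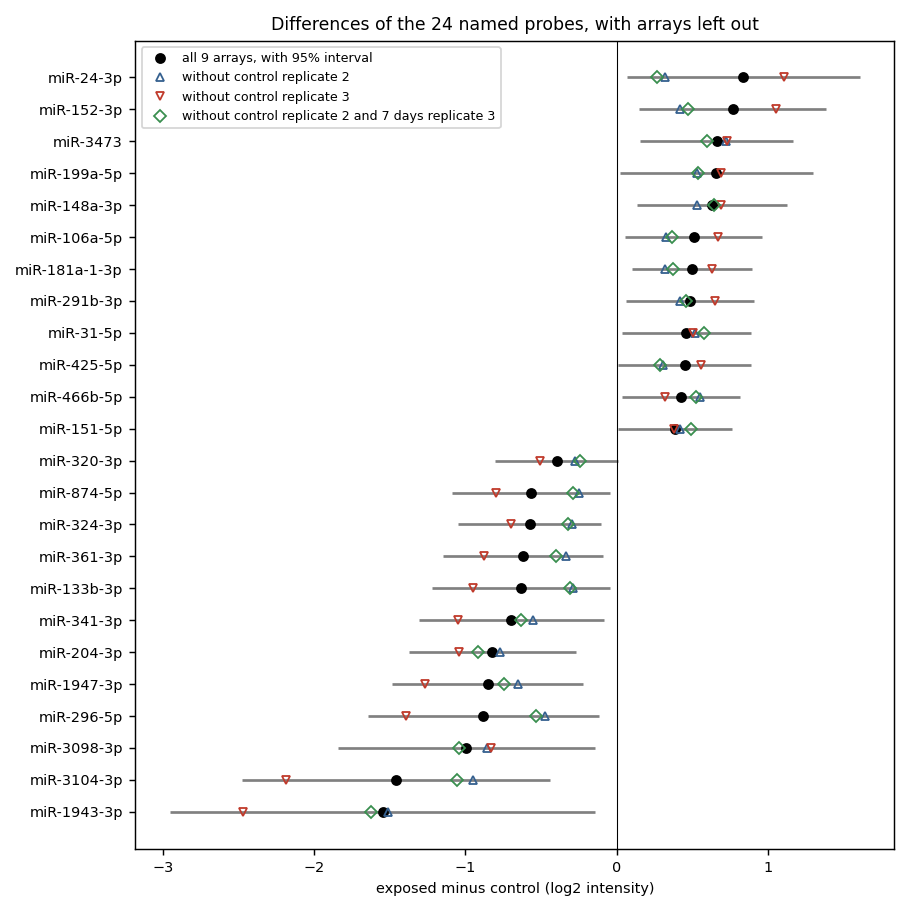
Exposed minus control (log2 intensity) of the 24 named probes (black) with its 95% interval from limma (grey), and the same difference with arrays left out (open symbols). The values for miR-24-3p are 0.84 with all arrays and 0.32 without control replicate 2, and those for miR-3104-3p are -1.46 and, without control replicate 3, -2.18.

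Turning to groups of miRNAs by cell type and function, 0 of the tested members of any of 18 lists passed the test. Their counts at an unadjusted p under 0.05 were 0 or 1 per list. Medians are given beside the 0.05 over all probes, 232 of which lay higher and 184 lower. In bulk tissue, fewer cells of a type and less RNA per cell cannot be told apart.

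For the nerve cells of the bulb, the medians were small. Neuron-enriched miRNAs had 15 tested probes of 20 on the array, 9 higher and 5 lower, with a median of 0.11 that was -0.06 without control replicate 2. miR-128-3p (0.46 ± 0.33) and miR-138-2-3p (0.36 ± 0.22) had the smallest p of the list. The value of miR-128-3p alone was -0.03 without control replicate 2. The miRNAs of neuronal activity, which follow calcium signalling and CREB, were 4 of 4 lower at a median of -0.06, with values from -0.12 (miR-132-5p) to -0.01. Without control replicate 2 the median was -0.16, and with array weights it was 0.16. In the miR-7 family, known from bulb interneurons, miR-7a-5p had 10.73 to 11.19 on the exposed arrays and 11.12 to 11.25 on the control arrays, and differed by -0.27 ± 0.14. miR-7b-5p, from another gene, differed by 0.34 ± 0.21, with -0.04 after 1 day and 0.73 after 7 days (unadjusted p between durations 0.0122, limma), and by 0.11 without control replicate 2. The median of the miR-7 list, 0.09, was -0.07 with median scaling.

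The families known from olfactory neurogenesis and sensory cells had medians near that of all probes. The miR-200 family had 4 of 8 tested probes higher and 4 lower, with a median of 0.05 that lies between 0.32 after 1 day and -0.14 after 7 days. miR-200b-3p differed by 0.51 ± 0.27 (0.15 without control replicate 2) and miR-200a-3p by 0.15 ± 0.14, with an interval of -0.18 to 0.47, and by 0.04 without that array. The miR-183 cluster had 1 of 4 higher and a median of -0.05. Its median, likewise, was 0.27 after 1 day and -0.37 after 7 days against the same controls, so the pooled value lies between parts of opposite sign. In both lists the part after 7 days leaned on replicate 3, which stands apart. The median deviation of the probes from their mean over all arrays was -0.06, -0.20 and -0.83 after 7 days for the miR-183 cluster. For the miR-200 family it was -0.09, 0.04 and -0.54. Without FA 7 days replicate 3 the pooled medians were 0.10 and 0.12. miR-183-5p had 0.52 after 1 day and -0.24 after 7 days, with an unadjusted p of 0.00669 between the durations (adjusted p = 0.437, limma).

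Among glial, blood and vessel miRNAs, several values rested on control replicate 2. Oligodendrocyte miRNAs had 3 of 4 higher and a median of 0.11 (-0.15 without control replicate 2), which lies between -0.19 after 1 day and 0.40 after 7 days. miR-219-5p differed by 0.29 ± 0.41 (-0.24 without control replicate 2), and miR-219-2-3p by 0.10 ± 0.16 with quantile normalization and by -0.07 with median scaling. The parts of miR-219-2-3p were -0.19 after 1 day and 0.39 after 7 days (unadjusted p between durations 0.0104, limma). Myeloid and lymphoid miRNAs had 3 of 4 higher and a median of 0.48, which was 0.32 without control replicate 2 and 0.09 with array weights. miR-142-3p, of blood cell lineages, had 8.87 to 10.33 on the exposed arrays and 9.47, 6.51 and 8.79 on the control arrays, a difference of 1.27 ± 0.63 that was 0.40 without control replicate 2. Its other arm miR-142-5p differed by 0.66 ± 0.34 (0.35 without control replicate 2), miR-223-3p of neutrophils by 0.30 ± 0.51 and miR-150-5p of lymphocytes by -0.24 ± 0.21 (-0.08 without it). miR-223-3p stood at 10.14 on FA 1 day replicate 2, against 7.17 to 7.99 on the other exposed arrays and 7.72 to 7.91 on the controls. The summed signal of the 6 probes of this list ran from 809 to 2437 on the exposed arrays and from 693 to 1324 on the control arrays. Their part in other results was not tested.

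Red blood cell miRNAs had 2 of 3 higher and a median of 0.34 (-0.15 without control replicate 1). The probe shared by miR-3107-5p and miR-486-5p had 8.64 to 9.20 on the exposed arrays and 8.48 to 8.63 on the control arrays, without overlap (0.38 ± 0.17). miR-451, the most characteristic red cell miRNA, had 11.83 to 12.21 on the exposed arrays and 12.05 to 12.47 on the control arrays, and differed by -0.17 ± 0.16, or by 0.08 with median scaling and -0.03 without control replicate 2. Vascular miRNAs had 3 of 6 higher and a median of -0.02, which was 0.10 with median scaling. miR-126-3p, of endothelial cells, differed by 0.99 ± 0.73 and by 0.03 without control replicate 2, where it had 8.58. miR-145-5p of smooth muscle differed by 0.22 ± 0.20, or by 0.09 with median scaling and 0.06 without normalization. The 3 lower members were miR-222-3p at -0.20, miR-145-3p at -0.14 (0.04 without control replicate 2) and miR-143-3p at -0.09 (0.11 with median scaling).

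Mesenchymal miRNAs were higher in 3 of 3 tested probes of 5, at a median of 0.55, with miR-199a-5p at 0.66, the probe shared by miR-199a-3p and miR-199b-3p at 0.55 ± 0.26 and miR-214-3p at 0.38 ± 0.19. Their median was 0.96 after 1 day and 0.12 after 7 days, and the higher values sat mostly on FA 1 day replicates 1 and 2. The median deviation of these probes from their mean over all arrays was 0.95, 0.61 and 0.01 after 1 day. It was -0.10, -0.37 and -0.34 after 7 days and -0.13, -0.69 and -0.39 in control. The summed signal of the list ran from 169 to 1001 on the exposed arrays and from 237 to 325 on the control arrays, so that the lowest exposed array lay under the controls. Muscle miRNAs were lower in 2 of 2 tested probes of 9 (miR-133b-3p and miR-133a-3p, median -0.57, or -0.22 without control replicate 2). Of these, miR-133a-3p was kept by its control arrays alone, where it is higher, so the filter favours its sign. The defining muscle miRNAs miR-1a-3p and miR-206-3p did not reach the detection rule. In the list of surface epithelium and choroid plexus, 2 of 3 were higher at a median of 0.27 (-0.23 without control replicate 2), with miR-203-3p at 0.27 ± 0.24 (0.14 without it), while miR-205-5p and miR-211-5p did not reach the detection rule.

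The miRNAs of inflammation and stress lay in both directions. Of 4 tested probes in the list of inflammation and innate immune brakes, 2 were higher and 2 lower, with a median of 0.15. miR-21-5p, which rises in many injured tissues, had 8.27 to 8.72 on the exposed arrays, against 8.40, 7.88 and 8.21 on the control arrays, a difference of 0.36 ± 0.17 that was 0.22 without control replicate 2. miR-146b-5p, which restrains innate immune signalling, differed by 0.39 ± 0.21 (0.12 without control replicate 2), and its parts were 0.01 after 1 day and 0.77 after 7 days (unadjusted p between durations 0.0136, limma). The 2 lower members were miR-146a-5p at -0.26 ± 0.23 and miR-21-3p, the other arm of miR-21-5p, at -0.06. miR-21-3p had 0.04 without control replicate 2 and -0.44 with the deposited ratios. miR-155-5p, of activated macrophages, did not reach the detection rule. In the list of hypoxia and p53, miR-210-3p differed by 0.27 ± 0.16, and miR-34c-5p by 0.16 ± 0.21 with quantile normalization and by -0.04 with median scaling. The list had 3 higher and 2 lower, the lower ones being miR-34a-5p at -0.11 and miR-34b-3p at -0.08 (0.21 without control replicate 2). Its median of 0.16 was -0.04 with median scaling.

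Of the widely expressed families, the miR-17 cluster and paralogs had 10 tested probes of 28, 8 of them higher, and a median of 0.48. This median was 0.26 without control replicate 2 and 0.03 with all mouse probes, so it depended on the detection filter. miR-25-3p differed by 0.80 ± 0.36 (0.29 without control replicate 2) and miR-19b-3p by 1.02 ± 0.46 (0.31 without it). Of these, miR-25-3p was kept by its exposed arrays alone, where it is higher, so the filter favours its sign. The let-7 family, known for differentiation, had 9 of 13 higher and a median of 0.30, which turned to -0.11 without control replicate 2. let-7d-3p differed by -0.54 ± 0.30 and let-7i-3p by 0.45 ± 0.33 (0.17 without control replicate 2). The miR-29 and miR-30 families had 8 of 14 higher and a median of 0.04, which was -0.03 with the deposited ratios. miR-30a-5p at 1.09 ± 0.60 became 0.11 without control replicate 2, where it had 7.45 against 10.27 and 10.52 on the other controls and 10.29 to 10.81 on the exposed arrays. miR-29c-3p had 0.71 ± 0.41 with all arrays and 0.08 without control replicate 2. The Dlk1-Dio3 cluster, with 48 tested probes of 89, had 30 higher and 18 lower and a median of 0.06, which was -0.06 with median scaling. After miR-341-3p, the probe shared by miR-299-5p and miR-299b-5p had the smallest p there, at -0.85 ± 0.44 (-0.47 without control replicate 2).

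**Figure D3:**
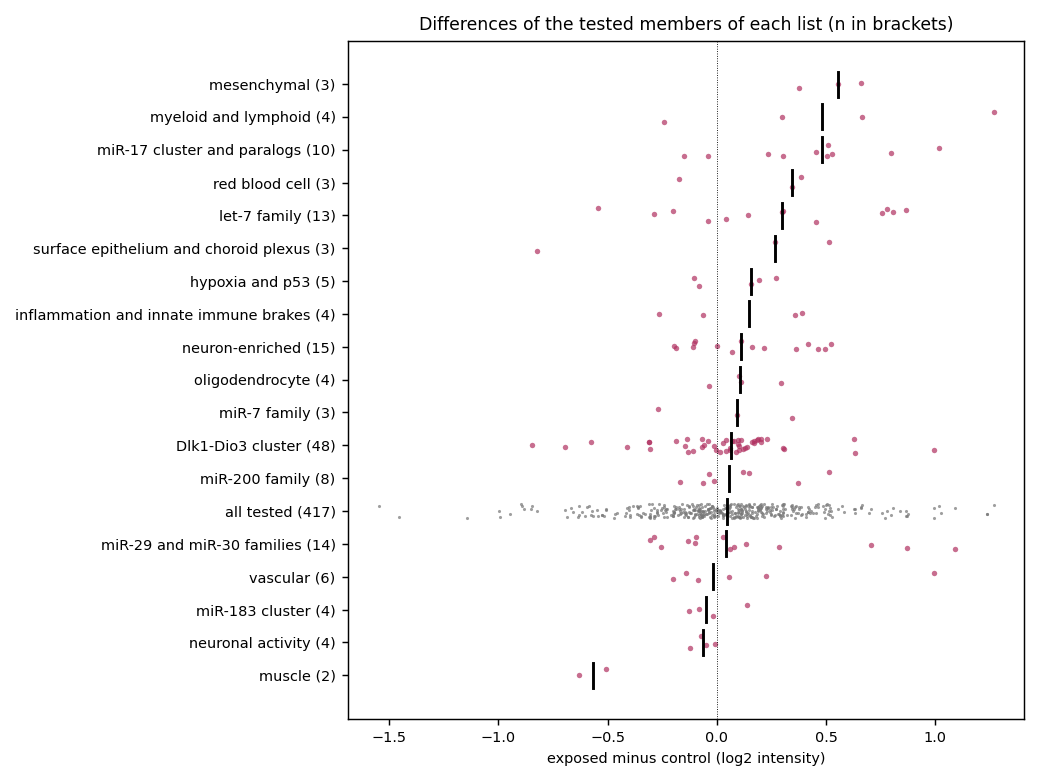
Exposed minus control (log2 intensity) of each tested member of the 18 lists and of all 417 probes (grey). Black ticks are medians, which run from -0.57 (muscle, 2 probes) to 0.55 (mesenchymal, 3 probes) beside 0.05 for all probes, and vertical scatter within a row only separates points.

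Some pooled values average durations of opposite sign. FA 7 days and FA 1 day differed at an unadjusted p under 0.05 for 33 probes (7.91%) and after adjustment for 0 (0%), with a smallest adjusted p of 0.437 (limma). The smallest p belonged to miR-146a-5p, an NF-κB target that damps innate immune signalling. It had 8.08, 7.82 and 7.84 after 1 day and 9.18, 8.76 and 9.38 after 7 days, against 9.20, 8.79 and 8.33 in control. Its pooled difference of -0.26 ± 0.23 lies between -0.86 after 1 day and 0.33 after 7 days. The pooled values of miR-1949 (0.24, or -0.01 without normalization), miR-221-3p (0.05), miR-34c-5p (0.16), miR-183-5p (0.14) and miR-125a-3p (-0.05) were of the same kind, with opposite signs at the 2 durations. By contrast, the 24 probes with the smallest pooled p had 1 sign at both durations in 24 of 24, a property that their choice favours since both durations use the same controls. Only 3 of the 24 had an unadjusted p under 0.05 between the durations.

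A feature that the choice of probes did not use was base composition. The mature miRNAs of the lower probes were richer in G and C, with a median of 62.8% (48% to 70%) over the 10 matched of the 12 lower probes, against 47.8% (31.8% to 54.5%) over the 9 matched of the 12 higher ones and 47.6% over all 313 matched probes. Across the 313 probes, which share the same 9 arrays, G and C content and the difference had a Pearson's r of -0.34 and a Spearman's rho of -0.30, given as a description. With any 1 array left out r ran from -0.39 to -0.25, and it was -0.41 without both arrays that stand apart. With the probes in 3 bins of rising G and C content (104, 104 and 105 probes), the median difference was 0.15, 0.05 and -0.06. Single arrays differed in the same measure: the deviation of an array from the mean of the others had an r with G and C content from -0.34 to 0.27 among the exposed arrays, where FA 7 days replicate 3 was the 1 above 0. Among the controls it was 0.34, 0.25 and -0.19 on replicates 1, 2 and 3. Control replicate 3, which lay with the exposed arrays for most of the 12 lower probes, also had the sign of most exposed arrays here. Its part in the differences was not tested.

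**Figure D4:**
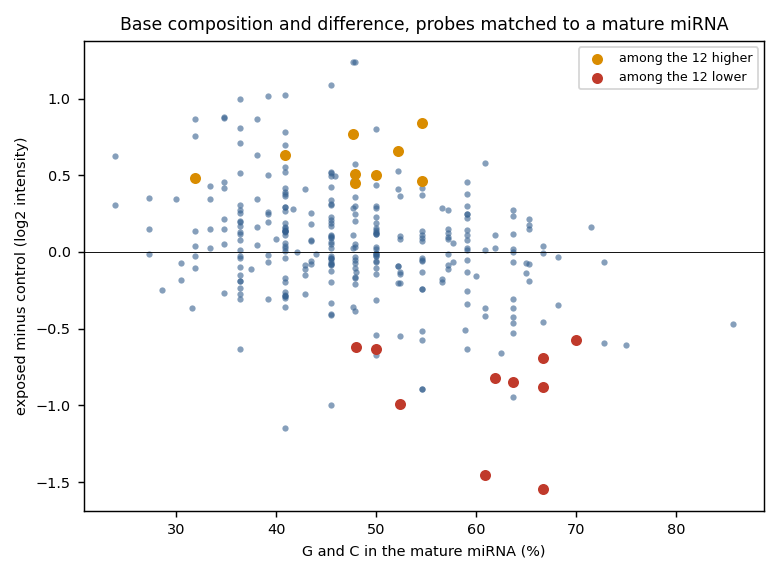
G and C content of the mature miRNA (percent) against exposed minus control (log2 intensity) for the 313 tested probes matched to a RefSeq sequence. Orange and red points are the 9 matched probes among the 12 higher and the 10 among the 12 lower ones, and the red points lie from 48% to 70%.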

How the data were processed

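Total RNA was labelled with the dye Hy3 and hybridised on single-colour arrays with an Exiqon miRCURY kit, per the labels' protocols. The authors deposited foreground intensity and foreground minus background intensity for 12312 spots on each of 9 arrays, per the file headers. They also deposited a table of ratios. Its values equal the median foreground minus background of a probe over 1 factor per array (100% of them to within 1%), which settles scale and direction. Its column medians run from 0.0196 to 0.16. Scanner and image software: the sources used here do not name them.

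Background was corrected per spot by normexp (offset 50), a probe's spots were averaged, and quantile normalization over 1084 miRNA probes came before log2 (R 4.3.3, limma 3.58.1). A probe naming several miRNAs (12 of 417) is called by its first. Groups came from the labels (FA 1 day samples are numbered 1, 2 and 4). Any 2 arrays had identical foreground at 10.7% of spots or fewer. limma's lmFit and eBayes were run on 3 group means, two-sided, adjusted over 417 probes at 0.05. Quantile normalization hides a shift shared by most miRNAs. The 23 alternatives covered background, scaling, filter, spots, model and samples. The number of arrays limits the precision. Named are, by smallest p, 12 probes in each direction, 2 of each list and 6 of FA 7 days versus FA 1 day. Other arms, neighbours, seed partners and list members given as values, and miR-711, were chosen after their values were seen, and miR-124-3p serves as a check of the tissue. The members and lists were chosen with earlier results of these data known. Slides and scan days are not in the labels, so no batch was tested.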

Additional observations from a re-analysis of the deposited data

Results flagged for a closer look

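In the 6 exposed arrays, 3 of 62 measures had a single array far from the other 5 by Dixon's test, which chance gives in about 1 of 20. The array was FA 7 days replicate 3 each time. It detected 398 mouse probes, where the other exposed arrays detected 465 to 505. miR-204-3p had 8.28 on it, against 7.36 to 7.67 on the others, and miR-126-3p, of endothelial cells, had 9.59, against 11.60 to 12.17. Without this array the pooled differences were -0.97 and 1.39, where they were -0.82 and 0.99 with it.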

How the results depend on the processing

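Under 22 of the 23 alternatives 0 probes passed. Leaving out 1 array at a time gave 0 to 5 passing probes, 9 to 80 at an unadjusted p under 0.05 and 8 to 61 without overlap. The 5, the 80 and the 61 came without control replicate 3, and the 9 without FA 1 day replicate 1 or FA 7 days replicate 2. The 23 probes at an unadjusted p under 0.05 became 53 with all mouse probes, 68 with array weights and 11 with the replicate block, and they were 10 without control replicate 2, 15 without FA 1 day replicate 4 and 53 without FA 7 days replicate 3. The 8 without overlap were 15, 20 and 30 without control replicate 1, control replicate 2 and FA 7 days replicate 3, and became 15 without normalization, 5 with the deposited ratios, 21 with all mouse probes, 5 with medians over spots and 52 without both arrays that stand apart (0 passed). The deviations of same-numbered samples from their group means had r from -0.56 to 0.33 over 7 pairs. With 3 arrays per group and no other pairs compared, this cannot decide whether samples were paired. The block is thus only an alternative setting. FA 1 day replicate 4 has no partner in it. The 24 probes named first kept their sign in all 539 values over the alternatives. Their choice by smallest p in these same arrays favours this, so it is no independent support. For the other 35 named probes 32 of 796 values had the other sign, and the cause was not tested. With median scaling, without normalization and with the deposited ratios miR-34c-5p had -0.042, -0.071 and -0.18, miR-219-2-3p -0.069, -0.099 and -0.0078, and miR-451 0.083, 0.053 and 0.041, while miR-1949 had -0.015 without normalization. With array weights miR-182-5p, miR-132-5p, miR-212-5p and miR-221-3p had 0.10, 0.15, 0.16 and -0.042. Without both arrays that stand apart miR-182-5p had 0.059, miR-29c-3p -0.032, miR-128-3p -0.025, miR-219-5p -0.064 and miR-221-3p -0.086. With 1 array left out at a time, miR-183-5p ran from -0.054 to 0.25, miR-182-5p from -0.24 to 0.029, miR-128-3p from -0.031 to 0.75, miR-132-5p from -0.32 to 0.090, miR-212-5p from -0.19 to 0.15, miR-219-5p from -0.24 to 0.63, miR-219-2-3p from -0.010 to 0.19, miR-221-3p from -0.10 to 0.15 and miR-125a-3p from -0.12 to 0.018. Of the 18 list medians, the mesenchymal, myeloid, miR-17 and muscle ones kept their sign in all alternatives. Their size varied, from 0.33 to 0.90, 0.09 to 0.76, 0.03 to 0.59 and -1.22 to -0.07. All alternatives use these same arrays, so a kept sign is no independent support. The muscle one rests on 2 probes, of which miR-133a-3p was kept by its control arrays alone.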
